A study of Caenorhabditis elegans with 2 samples.

Results

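Described here are nhr-21, nhr-14, nhr-119, nhr-35 and nhr-47, 5 of the 19973 protein-coding genes of the Ensembl annotation of the worm Caenorhabditis elegans, with the peaks that a ChIP-seq experiment on another receptor, NHR-43, gave near them. The genes were chosen by the signal of the peaks near them, so these signals are a description and were not tested. A gene's window ran from 2000 bp upstream of its annotated 5′ end to the end of the gene, and a peak was counted by its summit, the position of its highest point. The windows of the 5 genes held 9 of the 3870 nuclear peaks of the authors' thresholded list, 4 at nhr-21, 2 at nhr-14 and 1 at each of the other 3 genes. Among all protein-coding genes 16.7% had such a summit in their window, and the choice of the 5 genes fixes that each of them has one.

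The chromatin came from L3 hermaphrodite larvae of strain OP477, of genotype unc-119(tm4063) III; wgIs477, taken 36.5 h after animals arrested as starved L1 larvae were released. The transgene adds NHR-43 with GFP and FLAG at its C terminus, and precipitation was with an antibody to GFP. All animals carried both the mutation and the transgene, so each of the 2 biological replicates belongs to the same single group and no condition is compared with another. Whole animals of 1 transgenic strain were used, so a peak cannot be assigned to a tissue, and the control libraries that the labels name were not analysed here. Read depth is unknown, and each signal value is the authors' own, on a scale that belongs to its list.

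Nuclear hormone receptors are transcription factors that bind DNA through a pair of zinc fingers and carry a domain that can bind small lipophilic ligands. The family is greatly enlarged in nematodes, and most members descend from a receptor related to vertebrate HNF4. Receptors often sit in networks in which one receptor gene is regulated by another. In C. elegans, NHR-14 is known for holding down intestinal iron uptake. ChIP-seq records where the tagged protein, or chromatin that is recovered with it, lies on DNA, and does not record whether the nearby gene changes its expression.

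Sequences at the leading summits of nhr-21, nhr-14, nhr-119 and nhr-47 come first, since the positions below refer to them. Each is 151 bp centred on the summit, read 5′ to 3′ on the strand of the receptor gene from the RefSeq copy of WBcel235, the assembly of the ce11 lists. The bases that match 1 of 7 fixed words on either strand are in capitals. The words were GAGAGA, a simple repeat, CCGCCC, of the kind Sp1 binds, and TGCGTCT, part of a word found at sites of EOR-1, a zinc finger protein. The others were AGGTCA and AGTTCA, hexamers of the kind receptors bind, AAAGTCC, the core of HNF4-like sites, and TGATAA, of the kind GATA factors bind. For nhr-47 the summit lies in the 5′ UTR, so only the 51 bases of the window upstream of the gene are printed, and the summit is 25 bases beyond the last of them.
nhr-21 upstream (chrII:7337606-7337756, plus strand): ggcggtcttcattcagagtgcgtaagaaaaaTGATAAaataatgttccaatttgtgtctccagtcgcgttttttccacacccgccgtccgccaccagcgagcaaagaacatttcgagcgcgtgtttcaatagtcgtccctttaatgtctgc
nhr-21 intron (chrII:7343064-7343214, plus strand): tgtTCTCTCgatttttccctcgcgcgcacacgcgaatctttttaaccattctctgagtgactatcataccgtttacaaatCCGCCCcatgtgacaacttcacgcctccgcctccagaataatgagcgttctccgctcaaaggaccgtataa
nhr-14 intron (chrX:8475224-8475374, minus strand): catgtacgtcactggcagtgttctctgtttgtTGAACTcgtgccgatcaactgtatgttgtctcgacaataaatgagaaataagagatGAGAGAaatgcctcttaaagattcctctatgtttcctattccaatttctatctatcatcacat
nhr-14 upstream (chrX:8477592-8477742, minus strand): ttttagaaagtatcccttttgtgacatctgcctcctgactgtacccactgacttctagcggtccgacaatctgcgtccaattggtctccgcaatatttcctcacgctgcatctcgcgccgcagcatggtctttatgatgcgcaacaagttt
nhr-119 upstream (chrII:2800949-2801099, minus strand): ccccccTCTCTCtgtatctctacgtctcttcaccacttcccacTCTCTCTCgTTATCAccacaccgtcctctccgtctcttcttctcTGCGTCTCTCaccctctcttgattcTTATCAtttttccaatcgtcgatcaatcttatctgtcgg
nhr-47 upstream of the 5′ end (chrV:5505202-5505252, plus strand): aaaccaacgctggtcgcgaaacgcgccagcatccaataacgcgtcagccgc

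GAGAGA was the most frequent of these words, at 4 of the 9 summits. It lay in the windows of nhr-119, nhr-14 and nhr-47 and of the intronic nhr-21 peak shown. For nhr-47 the match lies in the part not printed. The word was in 26.8% of all 3870 nuclear thresholded windows of this length and in 8.88% of the 7740 windows centred 500 bp to either side. The window of nhr-119 held it at 4 places on the same strand, 2 of which overlap each other, and 1 more overlaps a match to TGCGTCT. That longer word was in no other of the 9 windows, against 8.89% of all thresholded windows and 1.41% of flanking ones. CCGCCC was in 1 window, that of the intronic nhr-21 peak (7.26% of all thresholded windows, 2.71% of flanking windows).

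No window of the 9 held AGGTCA (5.71% of thresholded windows, 4.26% of flanking ones) or AAAGTCC (1.68% and 1.58%). AGTTCA was in 3 windows, among them those of the intronic nhr-14 peak and the weakest nhr-21 peak, and in 7.91% of all thresholded windows against 10.4% of flanking ones. TGATAA was in 2, at the upstream peaks of nhr-21 and nhr-119, against 16.5% of thresholded and 14.2% of flanking windows. These are matches of letters, which do not show that a factor binds there. The 9 windows averaged 44.7% G+C ± 6.86 (SD over windows), against 43.2% ± 7.06 over all 3870 thresholded windows and 36.2% ± 7.92 over flanking ones.

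The highest peak of the group was at nhr-21 (WBGene00003620, chrII:7339229-7349133, plus strand). It covered chrII:7337368-7337932, between genes, with its summit 1548 bp upstream of the 5′ end and a pooled signal of 1494.1, rank 6 of the 3870 nuclear peaks. Its signal was 673.7 in replicate 1, rank 3 of 29297 nuclear peaks in that relaxed list, and 806.0 in replicate 2, rank 9 of 29979. The 2 replicates' summits were 15 bp apart, so both place the peak at the same site, near the top of each list. The nearest other protein-coding 5′ end was that of npax-1, which is transcribed away from nhr-21, at 6357 bp from the summit.

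The other 3 nhr-21 summits lay inside the gene, in the long intron that runs from 50 to 7280 bp downstream of the 5′ end in the transcript F21D12.1c.1. The strongest of them, 3910 bp downstream (chrII:7342966-7343310), had a pooled signal of 296.1 and rank 382. It ranked 986 in replicate 1, with a signal of 55.6, and 269 in replicate 2, with 201.4. The larger rank was 3.67 times the smaller, and for the upstream peak, at ranks 3 and 9, it was 3 times the smaller. Thresholded peaks found in both replicates with a pooled signal at least that of the nhr-47 peak numbered 452. Their median ratio was 1.55 and the upper quartile 2.29, so both nhr-21 peaks lay above the upper quartile. At ranks as high as 3 and 9, a difference of few places gives a large ratio.

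The next intronic peak, 5249 bp downstream, had a signal of 88.0 and rank 2532. In the pooled list it lies 873 bp upstream of the 5′ end of the shorter transcript F21D12.1c.4, the nearest annotated transcript start. Replicate 2 had a summit 37 bp from it, and the nearest in replicate 1 was 175 bp away. The last, 3324 bp downstream, had a signal of 65.9 and rank 3529, close to the end of the list. Replicate 2 had the same summit at a signal of only 13.2, rank 14885, and replicate 1 had none within 500 bp. The 2 weaker intronic peaks are therefore not matched within 100 bp in both replicates, and the upstream peak and the strongest intronic one are.

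**Figure D1:**
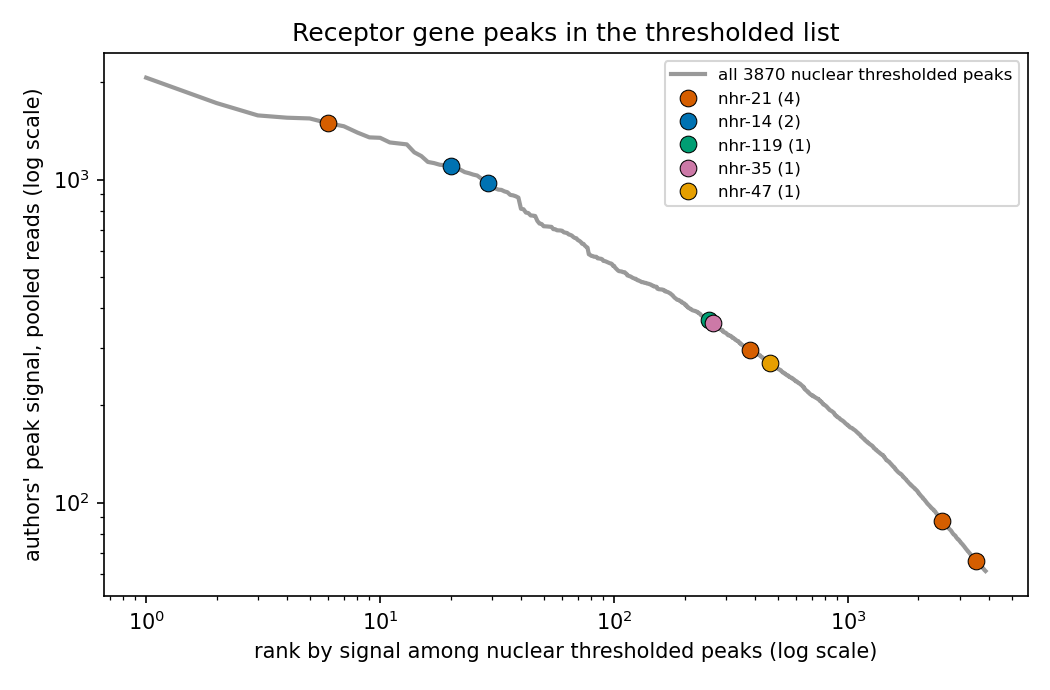
Signal of the 3870 nuclear thresholded peaks (vertical axis, authors' pooled signal, log scale) against their rank (horizontal axis, log scale), with the 9 receptor gene peaks as coloured points. The nhr-21 peaks span almost the whole list, with ranks 6 to 3529, both nhr-14 peaks are among the 29 highest, and those of nhr-119, nhr-35 and nhr-47 have ranks 255, 265 and 464.

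At nhr-14 (WBGene00003613, chrX:8473722-8476178, minus strand) a pair of peaks of nearly equal signal flanked the 5′ end. One was intronic (chrX:8475080-8475515), at 879 bp into the gene, with a pooled signal of 1097.9 and rank 20. It had a signal of 426.6 and rank 22 in replicate 1, and 679.0 and rank 19 in replicate 2, with its summit at the same base in both replicates and in the pooled list. The other lay between genes, 1489 bp upstream (chrX:8477394-8477897), with a pooled signal of 972.2 and rank 29. It had a signal of 397.6 and rank 29 in replicate 1, and 577.9 and rank 32 in replicate 2, and the replicates' summits were 31 bp apart. Both peaks were thus among the 32 highest nuclear peaks of each list.

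The intronic nhr-14 peak was the higher in each of the 3 lists, by a factor of 1.13 in the pooled list, 1.07 in replicate 1 and 1.18 in replicate 2. The intron that holds it runs from 698 to 1082 bp downstream of the 5′ end in both annotated transcripts. Between the pair of peaks lies the noncoding RNA gene T01B10.13, transcribed in the opposite direction to nhr-14. The upstream summit was 1288 bp from the 5′ end of T01B10.13 and 1501 bp from that of another noncoding RNA gene, T01B10.14, so the 5′ end nearest to it, T01B10.13's, was not that of nhr-14. The intronic summit was 1080 bp from the 5′ end of T01B10.13, farther than from that of nhr-14. The nearest other protein-coding 5′ end, that of mec-10, which encodes a touch receptor channel subunit, was 4985 bp from the intronic summit and 7353 bp from the upstream one.

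The single nhr-119 peak (gene WBGene00003709, chrII:2794016-2800600, minus strand) lay at chrII:2800883-2801156, between genes and 424 bp upstream. Its pooled signal was 367.4, rank 255. In replicate 1 it had a signal of 95.9 and rank 444, and in replicate 2 a signal of 243.6 and rank 180. The replicates' summits were 5 bp apart, while the larger rank was 2.47 times the smaller, also above the upper quartile of 2.29. Both replicates thus place the summit closely and rank it differently, higher in replicate 2. The nearest 5′ end of another gene was that of K12H6.12, at 7132 bp.

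nhr-119 also has the summit closest to the edge of the thresholded list. The list holds the pooled peaks of highest signal, and the lowest nuclear signal in it was 61.4. Just inside it is the weakest nhr-21 peak, at 65.9. Just outside is a pooled peak 1816 bp upstream of nhr-119, with a signal of 59.5. Replicate 1 had a summit at 1686 bp upstream with rank 2482, and replicate 2 had one at 1647 bp upstream with rank 13231. Neither is within 100 bp of the pooled summit, so this peak is matched in neither replicate.

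At nhr-35 (WBGene00003628, chrX:4532691-4537546, plus strand) the thresholded peak lay between genes at chrX:4532128-4532397, 401 bp upstream of the 5′ end, with a pooled signal of 359.7 and rank 265. Replicate 1 gave a signal of 149.9 and rank 224, and replicate 2 gave 191.8 and rank 303, with summits 19 bp apart. The 5′ end nearest to the summit was not that of nhr-35. It was that of a piRNA locus, 21ur-11723, 339 bp away on the upstream side. The nearest protein-coding 5′ end other than that of nhr-35 was that of pdi-2, which encodes a protein disulfide isomerase, at 8135 bp. The second summit in the nhr-35 window, 241 bp downstream of the 5′ end, reached a pooled signal of 49.1 and rank 5062 and was not thresholded.

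The nhr-47 peak (gene WBGene00003637, chrV:5505253-5509956, plus strand) was the only 1 of the 9 with its summit in an exon. In the pooled list it was the narrowest, at 207 bp, but in neither replicate. It was 131 bp wide in replicate 1, where the strongest intronic nhr-21 peak had 70 bp. In replicate 2 it was 324 bp wide, where the nhr-35 peak had 187 bp. The pooled nhr-47 peak lay at chrV:5505183-5505389, with the summit in the 5′ UTR, 24 bp downstream of the annotated 5′ end. Its pooled signal was 270.3, rank 464. Replicate 1 gave a signal of 85.6 and rank 533, replicate 2 gave 133.6 and rank 593, and the summits were 6 bp apart. Other genes start close to this site. The summit was 16 bp upstream of the 5′ end of C24G6.10, a noncoding RNA gene on the opposite strand, and 420 bp upstream of that of dnj-19, a DnaJ cochaperone gene transcribed away from nhr-47. Which of these genes the peak belongs to cannot be told from the position.

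**Figure D2:**
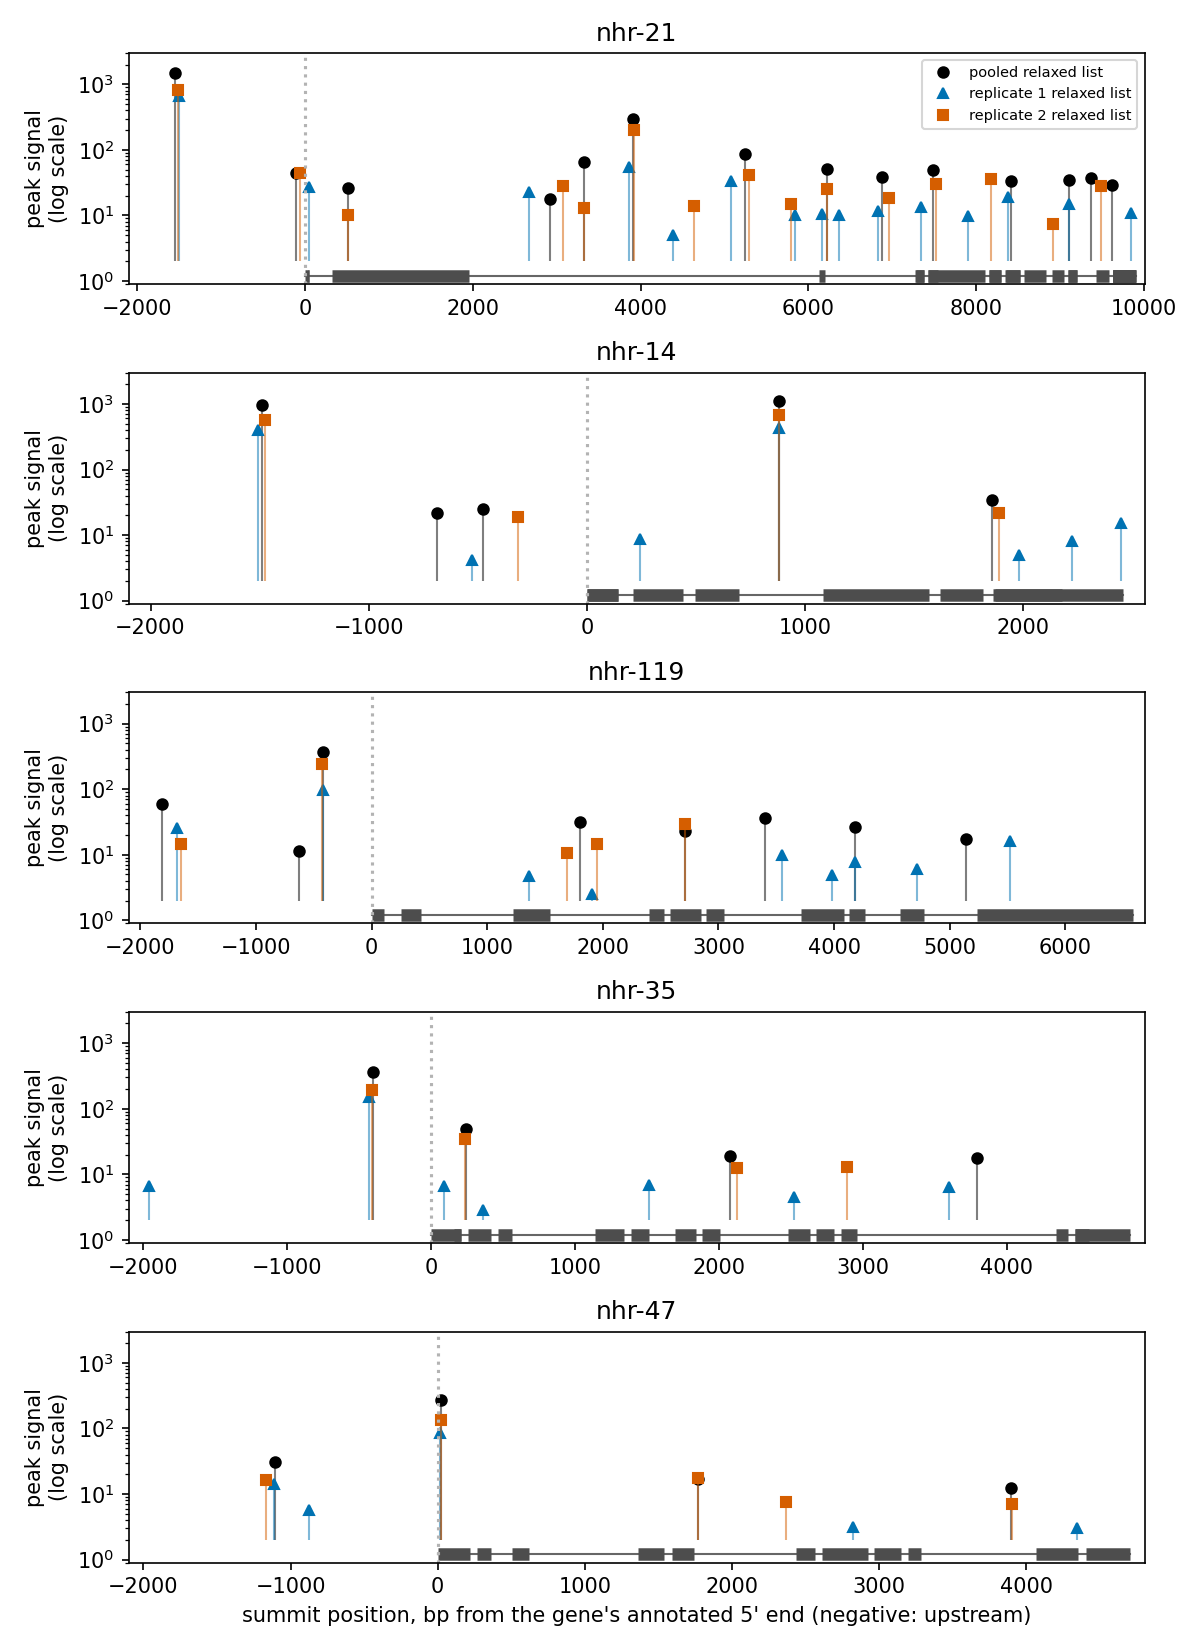
Summits in the window of each receptor gene, by distance in bp from the annotated 5′ end (horizontal axis, dotted line at 0) and by signal (vertical axis, log scale), for the pooled list (circles), replicate 1 (triangles) and replicate 2 (squares). The boxes at the foot mark annotated exons and carry no signal. Signal scales differ between lists, so heights are to be compared within a list. Each gene has 1 summit, or 2 at nhr-14, that stands above the rest of its window in all 3 lists.

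Within each window the leading peak stood clear of the rest, except that nhr-14 has 2 leading peaks. The highest pooled signal over the next was 5.05 at nhr-21, 6.17 at nhr-119, 7.33 at nhr-35 and 8.85 at nhr-47. In replicate 1 the same ratio ranged from 3.72 at nhr-119 to 21.6 at nhr-35 among these 4 genes, and in replicate 2 from 4.00 at nhr-21 to 8.33 at nhr-119. The relaxed lists, which were made to include background, held further summits of low rank in every window. At nhr-21 there were 14 pooled, 15 replicate 1 and 15 replicate 2 summits in a window of 11905 bp, and at nhr-47 there were 4, 5 and 5 in 6704 bp.

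Both replicates had a summit within 100 bp of 7 of the 9 thresholded summits, or 77.8%, against 78.1% of all nuclear thresholded peaks. Each gene's highest peak was among those 7. Over the 464 peaks with a pooled signal at least that of nhr-47, 97.4% were matched in both. These values are not independent of the choice of the genes, since the pooled list holds the reads of both replicates.

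**Figure D3:**
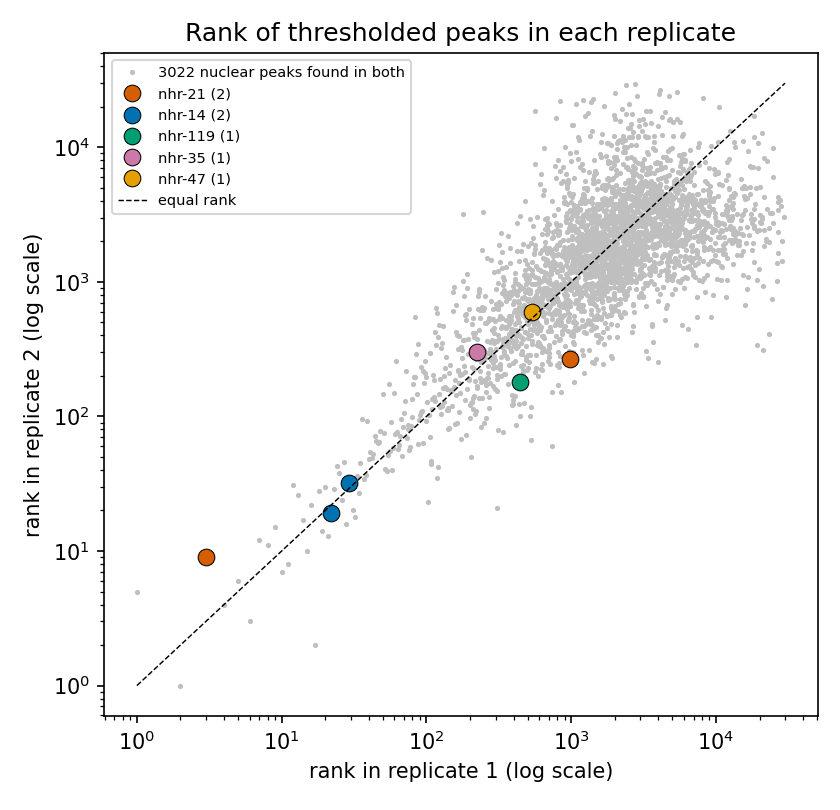
Rank of thresholded peaks in replicate 1 (horizontal axis, log scale) and replicate 2 (vertical axis, log scale), for the 3022 nuclear peaks with a summit within 100 bp in both (grey) and the 7 receptor gene peaks among them (coloured). The dashed line marks equal rank. The nhr-14, nhr-35 and nhr-47 points lie near the line, the intronic nhr-21 peak and the nhr-119 peak rank higher in replicate 2, and the upstream nhr-21 peak ranks 3 in replicate 1 and 9 in replicate 2.

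The peaks of the pooled list differed in width as well as in signal. The upstream nhr-21 peak was 565 bp wide, and the nhr-14 peaks were 504 bp upstream and 436 bp in the intron. At least 96.9% of nuclear thresholded peaks were narrower than each of these 3. The peaks of nhr-119 (274 bp), nhr-35 (270 bp) and nhr-47 (207 bp) were narrower than the most common width of 324 bp. The strongest intronic nhr-21 peak, of rank 382, was 345 bp wide, and 94.8% of peaks were narrower. Only 45.8% were narrower than 324 bp, so the high share owes much to the many peaks of that width. The same peak was 70 bp wide in replicate 1 and 242 bp in replicate 2. The most common widths in those lists were 276 and 324 bp. Median width was 396.5 bp for nuclear thresholded peaks of ranks 1 to 50 and 239 bp for the 300 peaks ending at rank 500. It was 324 bp for the 3370 peaks of lower signal. The ranks between 50 and the first of those 300 peaks were not summarised. Median width thus did not fall steadily across these sets. The value of 324 bp is also the most common width, so no trend of width with signal is read from it.

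The label of the group was set against the other nuclear receptor genes, which comprise every other protein-coding gene named nhr with a number, with daf-12, sex-1, unc-55, fax-1 and odr-7. Of these 269 genes, 45 (16.7%) had a thresholded summit in the same kind of window. The exact Clopper-Pearson 95% interval was 12.5 to 21.7% and covers counting error only. Windows can overlap and 1 peak can count for more than 1 gene, so the genes are not independent draws. The highest signals of the 5 genes ran from 270.3 to 1494.1 with a median of 367.4. Those of the 45 ran from 64.1 to 1035.6 with a median of 122.4. Since the 5 were chosen by signal, the gap between these medians follows from the choice and nothing is read from it. The windows of the 5 were longer, with a median of 6856 bp, against 4309 bp for the 269.

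In the order of all 50 receptor genes with a summit, nhr-21 was first, nhr-14 second, nhr-119 seventh, nhr-35 eighth and nhr-47 eleventh. The 5 are thus not the 5 receptor genes of highest signal. Ahead of nhr-119 came nhr-68, a regulator of propionate breakdown (signal 1035.6), the gene of the tagged receptor itself, nhr-43 (659.2), nhr-19 (556.1) and nhr-3 (465.5), and ahead of nhr-47 also nhr-27 (346.9). The neighbours of nhr-47 in that order, named after their values were seen, were nhr-34 just above (283.0) and nhr-5 just below (251.5).

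The side on which the highest summit lay was mixed in both sets. It was upstream of the 5′ end in 3 of the 5, nhr-21, nhr-119 and nhr-35, and in 23 of the 45, and downstream in the other 2 and 22. In 2 of the 5 and in 18 of the 45 the window held more than 1 thresholded summit. The most in 1 window was 4 for the 5 genes and 5 for the others, at nhr-43, the gene of the tagged receptor. The highest summit was matched in both replicates in all 5 and in 38 of the 45. Matches were more frequent among strong peaks (97.4% at or above the nhr-47 signal, 78.1% of all nuclear thresholded peaks). The choice of the 5 by signal therefore bears on this comparison, and nothing is read from it.

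**Figure D4:**
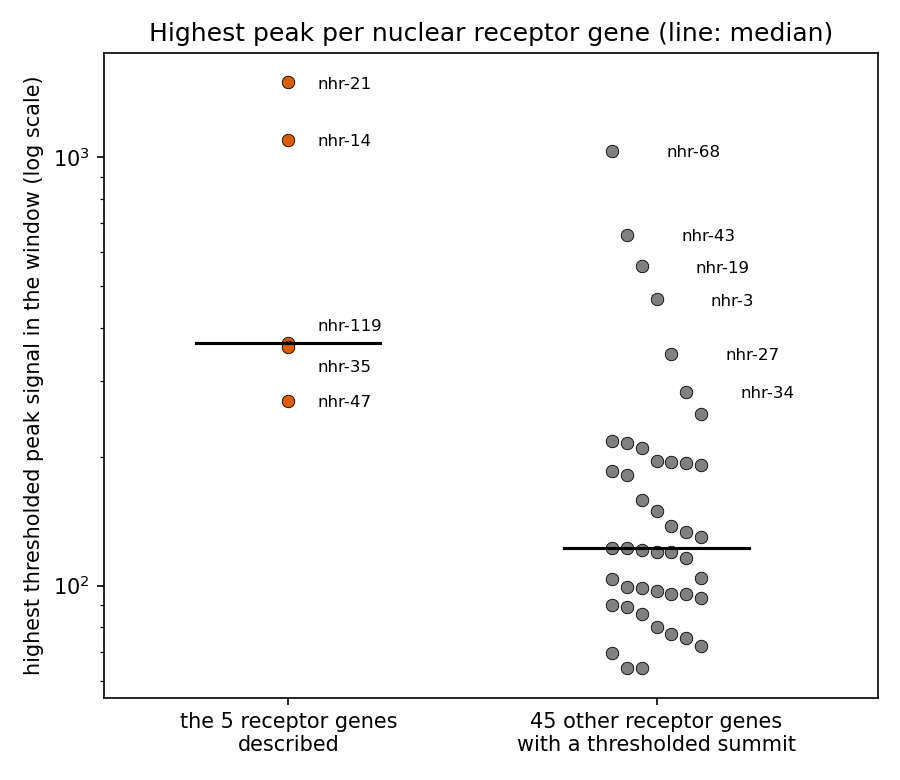
Highest thresholded signal in the window (vertical axis, log scale) for the 5 receptor genes described, on the left, and the 45 other receptor genes with a thresholded summit, on the right. Each point is a gene and the lines are medians, 367.4 and 122.4. The 5 were chosen by signal, so the gap between the lines follows from the choice. Of the other genes, nhr-68, nhr-43, nhr-19 and nhr-3 lie above nhr-119.

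The peaks nearest in signal to each gene's leading peak lay at genes of varied kinds. Next to the upstream nhr-21 peak in rank were a peak 460 bp upstream of rpl-35, a large ribosomal subunit gene (signal 1545.3), and one 3347 bp upstream of cest-16, of the carboxylesterase family (1461.5). Next to the intronic nhr-14 peak were sec-61.G, a subunit of the endoplasmic reticulum translocation channel (1106.8), and Y41G9A.17 (1086.0). The nhr-119 peak ranked between peaks at sec-24.1, which encodes a vesicle coat protein (367.6), and acl-1 (366.9), and that of nhr-35 between T26A8.4 (360.1) and egl-9, the prolyl hydroxylase gene of the hypoxia pathway (359.2). That of nhr-47 ranked between F07H5.13 (270.4) and F26G1.1 (270.2). Likeness here means adjacent ranks among 3870 pooled signals, and each gene is that with the protein-coding 5′ end nearest to the peak.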

How the data were processed

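The authors deposited narrowPeak lists on ce11 and ce10; only the ce11 lists were used, with WBcel235 and Ensembl release 115. Per the file listing in the deposit, each replicate's relaxed list came from its alignments and a control file, the pooled list from both replicates, and the thresholded list from these 3 by the irreproducible discovery rate (tools and versions: not given in the sources used here). Signal values and the −log10 q values are as the authors deposited them. The highest −log10 q was 2.69 in both the thresholded and the pooled list. Peaks were ranked by signal, among nuclear peaks only (19 mitochondrial thresholded peaks left out). Depth is unknown, so signals have no interval.

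Windows, matches between lists (summits within 100 bp) and words within 75 bp of a summit, on both strands, were computed with Python 3.11.15, pandas 2.3.3 and numpy 2.4.6, and checked on simulated summits, where all 200 planted summits were found among 19973 genes. Coordinates count from 1. The window sequence of nhr-35 is not reported here. No hypothesis test was run: the genes were chosen for their signal, and there is 1 group of 2 biological replicates. Genes, words, receptor list and rules for naming were chosen with earlier results of these data known. Named genes are the 5, their neighbours at each summit, nhr-43, the 5 other receptors of highest signal and the peaks adjacent in rank. Alternatives were other windows, a stricter threshold, merged peaks, the nearest 5′ end, each replicate alone, other match distances and other word windows.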

Additional observations from a re-analysis of the deposited data

How the results depend on the processing

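The 9 thresholded summits became 7 with 1000 bp upstream and 7 with only peaks above the list's median signal, 11 with 5000 bp, 13 with each summit given to the nearest 5′ end and 9 with overlapping peaks merged. In a promoter window of 1000 bp upstream to 200 bp downstream, 3 summits at 3 genes (nhr-119, nhr-35 and nhr-47) were left, since those of nhr-21 and nhr-14 lie farther out. Without replicate 1 or 2, taking as many of the highest peaks of the other, the counts ran from 9 to 12 and all 5 genes had a summit. The share of protein-coding genes with a summit was 13.8% with 1000 bp upstream, 23.3% with 5000 bp, 10.1% in the promoter window, 9.88% with only peaks above the median signal and 13.6% with the nearest 5′ end. Among other receptor genes it was 23.8% with 5000 bp, 8.92% in the promoter window and 10% with peaks above the median signal. Summits matched in both replicates numbered 7 to 8 of 9 under 4 other rules. Without either replicate, the highest summit lay at -1517 to -1502 bp from the 5′ end at nhr-21 and -428 to -423 bp at nhr-119. It lay at -432 to -413 bp at nhr-35 and 18 to 24 bp at nhr-47, and stayed at 879 bp at nhr-14. The pooled summits of nhr-21, at -1548 bp, and nhr-35, at -401 bp, lay outside these ranges. The word windows are centred on the pooled summits. With words sought within 50 bp of a summit, AGTTCA was in 1 window instead of 3, and within 100 bp TGCGTCT was in 2 instead of 1. No paired analysis was possible because there is 1 group. Depth is unknown, and the control libraries behind the authors' lists were not analysed here, which limits the reading of weak peaks.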

Other observations

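Beyond the windows, 4 further thresholded summits had a member of the group as their nearest protein-coding 5′ end. A peak 3605 bp upstream of nhr-35 (chrX:4528952-4529190) had a signal of 308.6 and rank 350, and both replicates had a summit within 13 bp. A peak 9422 bp upstream of nhr-14 (chrX:8485496-8485720) had a signal of 343.4 and rank 285, with replicate summits within 22 bp. The other 2 were weak, one 6981 bp upstream of nhr-14 with 69.7 and one 2476 bp upstream of nhr-119 with 70.2. nhr-21 and nhr-47 had none beyond their windows.

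The window of nhr-119 stood apart in base composition, a measure chosen after the sequences were seen. On the strand of its gene, C and T made up 78.8% of the 151 bases, against a median of 55.6% on the richer strand over 3870 thresholded windows. A value as high as that was found in 0.0775% of those windows. No test was made of any relation between this composition and signal.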
